A study of Mus musculus with 41 samples.

Results

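H3K18la, lactylation of lysine 18 of histone H3, was mapped by CUT&Tag in mouse primary myoblasts (MB) and in primary myotubes (MT), and the regions described here are those where either cell type had a peak. The 13550 MB peaks and 33991 MT peaks on chromosomes 1 to 19 and X were merged into 36127 regions. A region was classed as MB-only, MT-only or shared by which list had a peak in it, with 1 bp of overlap counting as shared, and this gave 2432 MB-only, 23615 MT-only and 10080 shared regions. The 13 peak lists of the series used here held 336899 peaks in all. Both cell types were C57BL/6 cells labelled as control. The myoblasts were grown on Matrigel in serum-rich medium with basic FGF, and the myotubes were obtained by moving such cells to a low-serum differentiation medium. Both were trypsinized and handled as nuclei, in buffers that held sodium butyrate, an inhibitor of histone deacetylases. The MB list came from 1 library and the MT list from 2 libraries that were pooled before peaks were called. There was thus 1 list per cell type, no spread between replicates and no test. The intervals given are 95% Wilson intervals for shares and Newcombe intervals for differences between shares, and both cover the counting of regions only.

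A peak here is a stretch whose CUT&Tag coverage lies in the top 1% of all stretches of that list, so a region without a peak may still carry the modification. Total signal is the coverage summed over a peak and is not scaled for depth, so it is compared only within a list, as a percentile from 0 (weakest) to 100 (strongest). Peaks covered 40.5 Mb in the MB list and 136.8 Mb in the MT list. The depth of the libraries is not analysed here. The lowest maximum signal of a peak was 30 in the MB list and 15 in the MT list. Chromosome 2 held 9.43% of all MB peaks and 9.99% of all MT peaks, against 7.04 to 8.39% in the 6 other H3K18la lists. Leaving it out changed the share of MB-only regions from 6.73 to 6.93%. Whether the different number of libraries accounts for the different list sizes was not tested, and cell type and library number cannot be told apart.

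Myoblasts are proliferating precursors that leave the cell cycle, fuse and build sarcomeres to become myotubes. MYOD1 and MYOG, basic helix-loop-helix factors, bind E-boxes, of which CAGCTG is the form preferred in muscle cells, and MEF2 factors bind an A- and T-rich element beside them at many muscle genes. AP-1, a dimer of FOS and JUN proteins that is active in growing cells exposed to serum and growth factors, binds TGANTCA. Histone lactylation uses lactate, the end product of glycolysis, and H3K18la is known from active promoters.

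The sequences below are from GRCm38.p6, the same assembly as mm10, on the plus strand, 160 bp centred on the signal maximum, with TGANTCA, the AP-1 motif, and CAGCTG in capitals. They show the pair of motifs whose shares differed most between distal MB-only and MT-only regions among the 8 searched. They were chosen from the regions of largest total signal because they hold TGANTCA (MB-only and shared) or CAGCTG (MT-only), outside annotated UTRs: of the 10 regions of largest total signal, the 300 bp at the maximum held TGANTCA in 8 of the MB-only, 0 of the MT-only and 6 of the shared regions, and CAGCTG in 1, 4 and 5. The MB-only windows lie at chr13:26940568-26940727 (intergenic, nearest protein-coding TSS that of Prl, holding both motifs), chr3:102354875-102355034 (intron of the lncRNA A230001M10Rik) and chr14:68034528-68034687 (intergenic, nearest Nefl).
MB-only, rank 1: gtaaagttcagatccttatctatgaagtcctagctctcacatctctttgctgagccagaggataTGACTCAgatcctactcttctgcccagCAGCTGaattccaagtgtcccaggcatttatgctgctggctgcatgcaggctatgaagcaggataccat
MB-only, rank 4: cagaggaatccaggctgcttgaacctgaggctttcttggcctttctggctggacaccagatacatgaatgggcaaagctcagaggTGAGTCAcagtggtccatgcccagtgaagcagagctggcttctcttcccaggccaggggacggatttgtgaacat
MB-only, rank 5: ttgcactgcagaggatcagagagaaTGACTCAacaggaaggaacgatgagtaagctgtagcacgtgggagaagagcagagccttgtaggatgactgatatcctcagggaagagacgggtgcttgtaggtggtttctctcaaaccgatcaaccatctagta
The MT-only windows lie at chr15:101260502-101260661 (intron of Nr4a1) and chr9:61655447-61655606 (intergenic, nearest Rplp1), and the shared window at chr2:13407399-13407558 (intron of Cubn), where the motifs abut. Shared windows of ranks 1 and 3 also qualified and are not shown, and that of rank 1 holds TGANTCA alone. Over all shared distal regions 16.6% held both motifs in the 300 bp.
MT-only, rank 4: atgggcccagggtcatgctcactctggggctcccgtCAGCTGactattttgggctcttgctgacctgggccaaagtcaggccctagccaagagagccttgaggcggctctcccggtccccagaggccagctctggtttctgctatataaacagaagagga
MT-only, rank 10: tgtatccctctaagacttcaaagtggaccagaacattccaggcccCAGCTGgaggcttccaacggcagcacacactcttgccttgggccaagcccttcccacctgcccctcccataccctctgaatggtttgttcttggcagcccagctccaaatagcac
shared, rank 2: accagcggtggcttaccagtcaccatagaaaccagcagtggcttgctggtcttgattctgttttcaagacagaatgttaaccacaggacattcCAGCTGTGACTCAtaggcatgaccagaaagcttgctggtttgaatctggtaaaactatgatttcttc

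Distal regions, those over 2000 bp from any annotated TSS, are given here for genes of growth signalling (MB-only regions) and of the sarcomere (MT-only regions). Of 14 MB-only distal regions assigned to genes of growth signalling, 12 held TGANTCA within the 160 bp, against 53.8% of all 2002 MB-only distal regions. Of 44 MT-only distal regions assigned to sarcomere genes 18 held CAGCTG, against 29.8% of all 15868. The windows below are 2 of the 3 strongest of each, outside annotated UTRs, and were chosen because they hold the motif. They lie at chr6:17412815-17412974 (intergenic, 49.4 kb from Met, the receptor for hepatocyte growth factor), chr17:27547270-27547429 (exon of an annotated transcript, 8.16 kb from Hmga1, a chromatin protein of proliferating cells), chr2:114087483-114087642 (intergenic, 32.3 kb from Actc1, cardiac actin, which embryonic and newly formed muscle fibres use, holding both motifs) and chr1:66957485-66957644 (intergenic, 10.98 kb from Myl1, a myosin light chain).
MB-only near Met: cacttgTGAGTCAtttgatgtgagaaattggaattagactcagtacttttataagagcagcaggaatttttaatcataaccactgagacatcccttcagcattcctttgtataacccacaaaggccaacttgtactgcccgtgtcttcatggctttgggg
MB-only near Hmga1: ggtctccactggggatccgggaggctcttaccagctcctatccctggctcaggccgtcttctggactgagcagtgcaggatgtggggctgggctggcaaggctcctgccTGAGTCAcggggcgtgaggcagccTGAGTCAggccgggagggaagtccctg
MT-only near Actc1: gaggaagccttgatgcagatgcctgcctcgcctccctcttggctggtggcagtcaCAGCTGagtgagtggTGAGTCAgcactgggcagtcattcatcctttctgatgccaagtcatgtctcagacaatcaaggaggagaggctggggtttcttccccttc
MT-only near Myl1: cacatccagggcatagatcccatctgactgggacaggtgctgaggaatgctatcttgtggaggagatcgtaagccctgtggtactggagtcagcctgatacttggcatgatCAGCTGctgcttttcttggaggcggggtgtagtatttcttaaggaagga

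Most regions of the merged set were MT-only. They made up 65.4% (64.9 to 65.9%), shared regions 27.9% (27.4 to 28.4%) and MB-only regions 6.73% (6.48 to 6.99%). Of the MB peaks 82.1% (81.4 to 82.7%) were overlapped by an MT peak, and of the MT peaks 30.5% (30.0 to 31.0%) by an MB peak. By bases the shared 31.8 Mb were 78.5% of the MB list and 23.3% of the MT list. The sizes of the classes followed the sizes of the lists. With the 5000 peaks of largest total signal per list, 2406 regions (32.6%) were MB-only, 2708 (36.7%) MT-only and 2271 (30.8%) shared, and 51.9% of MB peaks and 45.8% of MT peaks were overlapped. With the MT list reduced to its 3712 strongest peaks, which cover as many bases as the MB list, the order turned: 72.7% of regions were MB-only and 6.50% MT-only. Which class was largest thus depended on how many peaks entered, and the contents of the classes are described with both the full lists and 5000 peaks per list. In the latter setting a class refers to the 5000 strongest peaks only, so a region called MB-only there can hold a weaker MT peak. Of the 5000 strongest MB peaks 93.5% were overlapped by the whole MT list. Of the 5000 strongest MT peaks 70.5% were overlapped by the whole MB list.

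**Figure D1:**
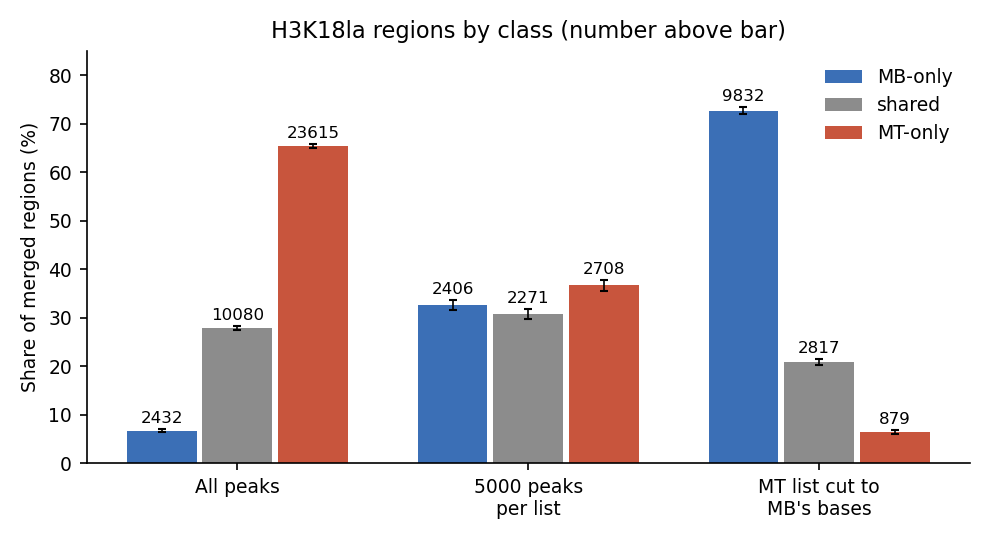
Share of merged H3K18la regions (%) that were MB-only, shared or MT-only with all peaks, with the 5000 peaks of largest total signal per list, and with the MT list reduced to the bases of the MB list; bars are shares, error bars 95% Wilson intervals and numbers above bars the regions. MT-only is the largest class with all peaks (23615 regions), the 3 classes lie between 30.8 and 36.7% with 5000 peaks per list, and MB-only is the largest (9832 regions) when the bases are equal.

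Strong peaks were more often shared. In the strongest decile of the MB list 98.4% of 1355 peaks were overlapped by an MT peak, and in the weakest decile 66.7%. In the MT list the share rose in every decile, from 10.4% of 3400 peaks in the weakest to 77.1% of 3399 in the strongest. Width moved with it: the median peak was 1625 bp in the weakest and 6554 bp in the strongest decile of the MB list, and 2030 and 9669 bp in those of the MT list. MB-only regions lay at a median percentile of 28.5 of the MB list and shared regions at 56.4. MT-only regions lay at a median percentile of 40.0 of the MT list and shared regions at 75.7. Even so, 22.9% of the strongest MT decile had no MB peak, and 1.62% of the strongest MB decile had no MT peak. The 10080 shared regions held 89.5% of the total signal of the MB list and 54.9% of that of the MT list.

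**Figure D2:**
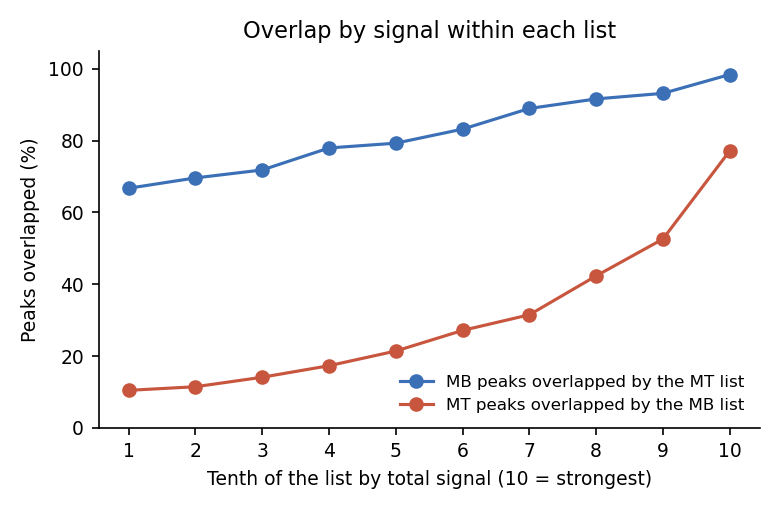
Share of peaks (%) overlapped by the other list, by decile of total signal within the list, for MB peaks (1355 per decile) and MT peaks (3399 or 3400 per decile). Overlap is higher in stronger deciles of both lists, from 66.7 to 98.4% for MB peaks and from 10.4 to 77.1% for MT peaks.

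Shared regions differed in shape between the lists. In 839 of them (8.32%) 2 or more MB peaks, at most 8, fell in 1 region, and in 284 (2.82%) 2 or more MT peaks, at most 3. The total signals of the lists were related over the 10080 shared regions with a Spearman rho of 0.48, and the maximum signals with 0.44; all points share the 2 lists, and the MT percentile itself followed the width of the region with a rho of 0.81. MB-only regions were often near MT peaks: 36.0% lay within 10 kb of one, with a median gap of 19.2 kb. For MT-only regions the median gap to an MB peak was 39.2 kb, and 20.2% lay within 10 kb. These gaps depend on how many peaks the other list has.

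MT-only regions lay more often at promoters than MB-only regions. A promoter was counted where a region came within 2000 bp of the TSS of any annotated transcript. Of the MT-only regions 32.8% (32.2 to 33.4%) were at promoters, of the shared regions 34.8% (33.9 to 35.7%) and of the MB-only regions 17.7% (16.2 to 19.2%), a difference of 15.1 points between MT-only and MB-only (13.4 to 16.7). With 5000 peaks per list the shares were 41.5, 43.0 and 26.6%, and the difference was 14.9 points (12.3 to 17.4). MB-only regions were instead intergenic in 41.2% (39.2 to 43.1%), against 30.2% of MT-only and 29.3% of shared regions, and intronic in 32.3%, against 28.1 and 25.5%. Width differed as well, with medians of 1940 bp for MB-only, 2740 bp for MT-only and 4389 bp for shared regions, and a wider region meets a TSS more easily. With 5000 peaks per list the medians were 3634 bp for MB-only and 7985 bp for MT-only regions, so that setting equals the number of peaks and not their width. The 300 bp at the maxima of promoter regions had a median CpG observed-to-expected ratio of 0.19 in MB-only, 0.34 in MT-only and 0.26 in shared regions, and a median GC content of 47.0, 54.0 and 52.3%. Among the 5000 strongest peaks per list these ratios were 0.23, 0.22 and 0.23, so the higher ratio of MT-only promoters was not seen among the strongest peaks.

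With all peaks, few genes had a promoter H3K18la peak in the MB list and none in the longer MT list. Of 21646 protein-coding genes, 176 (0.813%) had a peak within 2000 bp of the TSS of a coding transcript only in MB, 5121 (23.7%) only in MT and 1955 (9.03%) in both. At 5000 peaks per list the counts were 357 (1.65%), 701 (3.24%) and 469 (2.17%). These are the shares against which the gene lists below are to be read. For a gene, MB-only, MT-only and a peak in 1 list only refer here to the promoter. Of 109 listed MT-only genes 24 had an MB peak elsewhere in the gene, and of 6 listed MB-only genes 4 had an MT peak there. Genes with a promoter peak in both lists had their strongest promoter peak at a median percentile of 53.5 in MB and 79.8 in MT, and the percentile was higher in MT in 1518 of the 1955. The median difference, MT minus MB, was 17.95 points. The lists differ in length, so a percentile is a place within its own list, and a higher place in MT is no measure of more signal.

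Genes of the sarcomere, the contractile unit of muscle, were mostly MT-only. Of 45 genes 29 were MT-only, 12 in both lists, 0 MB-only and 4 in neither. Taking 5000 peaks per list, 19 were MT-only, 4 in both and 1 MB-only, where 3.24% of all genes were MT-only. The strongest MT promoter peaks of genes without an MB peak within 2000 bp of the TSS were those of Myom2, which encodes an M-band protein (percentile 98.8 of the MT list), of Acta1, skeletal actin (98.8), of Myh7, the slow myosin heavy chain (98.6), of Tnni2, fast troponin I (98.4), of Actc1, cardiac actin (98.2), and of Csrp3, a Z-disc LIM protein (97.7). Among the genes called in both lists, Tnnt3, fast troponin T, lay at percentile 14.6 in MB and 89.7 in MT, and Myh3, the embryonic myosin heavy chain, at 6.27 and 86.2. Some sarcomere genes had strong peaks already in myoblasts: Myom1 at 97.9 in MB and 98.3 in MT, and Xirp1, an actin-binding repair protein, at 97.8 and 96.4. Tpm1, a tropomyosin also used outside muscle, was the 1 gene of the list that was MB-only among the 5000 strongest peaks, at 79.6 in MB and 66.4 in MT. The 4 genes in neither list were the adult and perinatal myosins Myh2 and Myh8, the Z-disc gene Myoz1 and the myosin-binding gene Mybpc2.

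Calcium handling genes, which couple excitation to contraction, showed the same pattern with all peaks. Of 20 genes 14 were MT-only, 4 in both and 2 in neither. Among the 5000 strongest peaks per list 1 was MB-only, 2 were in both and 15 in neither, and 2 were MT-only, Atp2a1, the fast sarcoplasmic calcium pump (93.3 in MT), and Srl, sarcalumenin (94.55). The ryanodine receptor Ryr1 (48.2) and the calcium channel subunit Cacna1s (71.6) had MT peaks of middling strength. Jph2, which joins the sarcoplasmic reticulum to the plasma membrane, lay high in both lists, at 94.1 in MB and 99.1 in MT. Of 28 genes of muscle energy supply 13 were MT-only, 7 in both and 8 in neither, and with 5000 peaks per list 4, 1 and 23. Mb, myoglobin, had a promoter peak at percentile 99.8 in MT, while the MB peak in the gene lay outside the promoter. Aldoa, a glycolytic aldolase, lay at 22.4 in MB and 95.7 in MT, and Ldha, which makes lactate, had a peak only in MT, at 74.99. Ckm, the muscle creatine kinase, was also MT-only, at 66.5.

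Myogenic regulators and fusion genes were divided. Myod1, the determination factor of the lineage, had promoter peaks in both lists, at percentile 77.6 in MB and 99.9 in MT. Myog, the factor switched on at differentiation, had none in MB and one at 97.6 in MT. Myf6, a later factor, was MT-only at 61.2. Myf5, an early factor, was in both, at 65.3 and 69.2. Six4, a homeodomain factor, lay at 70.2 in MB and 68.1 in MT, and like Myf5 it was MB-only among the 5000 strongest peaks per list. Pax7, the satellite cell factor, and Pax3 had no promoter peak in either list. Of the fusion genes Mymk, myomaker, lay at percentile 46.3 in MB and 99.1 in MT, and Mymx, myomixer, had a peak only in MT, at 95.9. Cdh15, M-cadherin, lay at 77.6 in MB and 96.7 in MT. In all, 5 of 15 myogenic factors and 4 of 12 fusion genes were MT-only and 0 of either MB-only, where 23.7% of all genes were MT-only. With 5000 peaks per list 3 myogenic factors were MB-only, 3 MT-only and 2 in both. Of the fusion genes 1 was then MB-only, 3 were MT-only and 3 in both. Of 12 genes of the neuromuscular junction 9 had peaks in both lists, among them Chrna1, the acetylcholine receptor alpha subunit, at 97.7 and 99.1, and 2 were MT-only. With 5000 peaks per list 3 of the 12 were in both, 3 MT-only, 1 MB-only and 5 in neither.

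**Figure D3:**
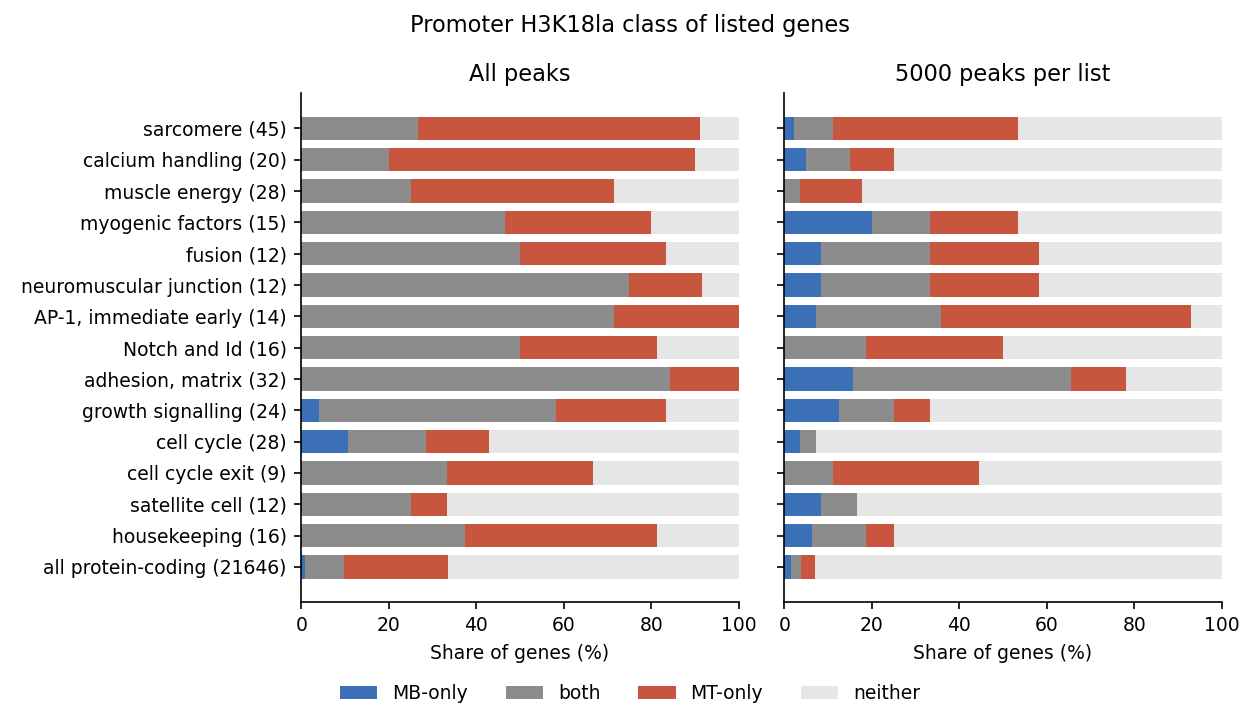
Share of genes (%) in each list with a promoter H3K18la peak only in MB, in both, only in MT or in neither, with all peaks (left) and with 5000 peaks per list (right); the number of genes stands beside each name and the last bar shows all 21646 protein-coding genes. Sarcomere genes are MT-only in 29 of 45 with all peaks and in 19 of 45 with 5000 peaks per list, and adhesion and matrix genes are in both lists in 27 of 32 and 16 of 32.

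Of the 6 listed genes that were MB-only, 4 belonged to the cell cycle and growth lists, and the other 2 were the fibroblast and adipocyte markers Pi16 and Lpl. Of 28 cell cycle genes 3 were MB-only, the mitotic kinase genes Cdk1 (percentile 22.4 of the MB list) and Aurka (13.2) and the mitotic transcription factor Foxm1 (48.0). The other 25 were MT-only in 4, in both lists in 5 and in neither in 16, and with 5000 peaks per list 26 of the 28 were in neither. Their promoter peaks had a median percentile of 26.2 in MB (8 genes) and 35.8 in MT (9 genes), against 51.9 and 53.0 over all genes with a promoter peak. Ccnd1, the G1 cyclin, was called in both but lay at percentile 90.9 in MB and 22.9 in MT. The growth signalling list also holds Hmga1 and Hmga2, which encode chromatin proteins. Of its 24 genes 1 was MB-only, 6 were MT-only, 13 were in both lists and 4 in neither. Of the 13, 10 (76.9%) ranked higher in MT, against 77.6% of all genes called in both. Hmga1 was the MB-only gene, at 84.7. Met lay at 89.8 in MB and 55.4 in MT, and Hmga2 at 80.0 and 52.2. With Hmga1 they were the 3 MB-only growth genes among the 5000 strongest peaks per list, where 2 others were MT-only, 3 in both and 16 in neither. Cd44, a hyaluronan receptor, lay at 92.6 in MB and 99.9 in MT, and Myc at 74.7 and 94.6. Of 9 genes of cell cycle exit 3 were MT-only and 3 in both; Cdkn1a, which encodes the inhibitor p21, lay at 47.6 in MB and 93.3 in MT, and Ccnd3, the cyclin of differentiating muscle, at 53.5 and 91.9.

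Genes of AP-1 and the immediate early response were in both lists in 10 of 14 and MT-only in 4. With 5000 peaks per list 8 were MT-only, 4 in both and 1 MB-only. The 1 MB-only gene was Fosl1, which encodes the FOS family member FRA1, at percentile 87.0 in MB and 51.1 in MT. Fosb lay at 62.7 in MB and 99.8 in MT, Fosl2 at 62.4 and 98.4, Junb at 94.3 and 99.5, and Egr1 at 0.12 and 86.3. In all, 9 of the 10 genes called in both lists ranked higher in MT, as did 77.6% of all genes called in both. A list of 16 genes that hold back differentiation joined Notch pathway and Id genes with Twist1, Mdfi, Hdac4 and Snai1. Of these 16 genes 8 were in both lists and 5 MT-only. Id1, Id2 and Id3 lay above percentile 90 in both lists, Id1 at 99.8 in MB and 99.1 in MT, while Heyl, a Notch target, had a peak only in MT (99.7), and Hes1 lay at 16.0 in MB and 99.1 in MT.

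Adhesion and matrix genes had the highest share of genes with peaks in both lists among the 20 lists. Of 32 genes 27 had peaks in both lists and 5 only in MT, and with 5000 peaks per list 16 were in both, 5 MB-only and 4 MT-only. Their median percentile was 88.5 in MB (27 genes) and 89.5 in MT (32 genes). Ahnak, a large scaffold protein (99.8 in both), Anxa2, an annexin (99.3 and 99.8), and Itga7, the laminin receptor subunit of muscle (98.3 and 92.3), were near the top of both lists. The 5 MB-only genes among the 5000 strongest peaks were the collagens Col1a2, Col3a1, Col4a1 and Col4a2 and the laminin gene Lamb1. Col4a1 and Col4a2 share a promoter and count once as a site.

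The list of 16 housekeeping genes was MT-only in 7, in both in 6 and MB-only in 0 with all peaks, but 1, 2 and 1 with 5000 peaks per list. An excess of MT-only genes with all peaks was therefore not particular to muscle lists. Of 12 satellite cell genes 8 had no promoter peak in either list. Markers of 6 other cell types (macrophage, fibroblast, endothelial, adipocyte, pluripotent and neural, 60 genes) had promoter peaks in neither list in 47, only in MB in 2 and only in MT in 7. Among the 5000 strongest peaks per list 57 were in neither. The macrophage markers Spi1 (85.2) and Cd68 (65.96) and the fibroblast markers Dpt (91.5) and Thy1 (69.1) had peaks only in MT, as did Cldn5 (39.1), Cebpa (55.7) and Tubb3 (3.90), and the fibroblast marker Pi16 (54.3) and the adipocyte gene Lpl (32.6) only in MB. Promoter peaks in both lists were found at the other 4: Pecam1 (37.2 in MB and 21.9 in MT), Ly6a (84.5 and 87.7), Cd14 (23.8 and 45.98) and 1 pluripotency marker (30.8 and 92.2). The markers Csf1r, Adgre1, Cdh5, Adipoq, Pou5f1 and Pdgfra had none in either list. Among muscle markers, Myod1, Cdh15 and Des had promoter peaks in both lists, and Myog, Acta1 and Ckm only in MT. Of the 15 myogenic factors 7 were in both lists, 5 only in MT and 3, among them Pax7 and Pax3, in neither.

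Away from promoters, each distal region was assigned to the protein-coding gene with the nearest TSS within 100 kb. MT-only distal regions were assigned to 5292 genes, shared ones to 2969 and MB-only ones to 1047. Pde4d, a cAMP phosphodiesterase, had the most MB-only distal regions, 7, beside 11 MT-only and 16 shared ones. Met was next, with 5 MB-only, 2 MT-only and 3 shared regions. Genes with 4 MB-only regions included Hspa13, Kctd1 and Lingo2, which had 0 MT-only regions, Il33, Mfap3l and Sema3a, which had 1 or 2, and Kif16b and Rbpj, which had 9 and 8. In all 13 genes had 4 or more. The most MT-only regions were assigned to Foxp1, a forkhead repressor, with 21, followed by Celf2, a splicing regulator, with 20, and by Mast4 and Rbfox1, another splicing regulator, with 19 each. Foxp1, Celf2 and Runx1 (18) had 0 MB-only regions. Long genes with wide intergenic flanks gather more regions, and the number was not scaled for length. Among the lists, sarcomere genes gathered 44 MT-only, 14 shared and 2 MB-only distal regions, and growth signalling genes 51, 32 and 14. Of all assigned distal regions 65.5% were MT-only (11829), 27.4% shared (4937) and 7.10% MB-only (1281).

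The 10 MB-only regions of largest total signal were 3.22 to 8.63 kb wide, against a median of 1940 bp over MB-only regions, and lay at percentiles 91.8 to 95.1 of the MB list. The first, chr13:26938466-26944280, was intergenic, 113290 bp from the TSS of Prl, with a total signal of 296525. The others included an intron of Grm7, a glutamate receptor gene (chr6:111052123-111057821), an annotated promoter in Tmeff2 (chr1:51141834-51146876) and an intron of Dlgap2 (chr8:14408716-14415764). Of the 10, 8 were in introns or intergenic sequence, 5 were in none of the other 11 peak lists used here, and 0 were in the H3K18la list of gastrocnemius muscle. One of them, chr14:68032622-68038641 near Nefl, lay beside a shared region (chr14:68040358-68046319) that was among the 5 ranked lowest in MT relative to MB, at 94.7 in MB and 6.05 in MT.

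The 10 MT-only regions of largest total signal lay at percentiles 99.5 to 99.9 of the MT list. The first was 365 bp wide with a maximum signal of 10844 (chr12:97061428-97061792, intergenic), was also called in 7 of the 11 other lists, and differs in shape from the other 9, whose maxima lay between 270 and 579 and whose widths lay between 12.7 and 38.0 kb. Leaving out all peaks with a maximum above 2000 left the share of MT-only regions at 65.4%. The others included 25.8 kb over Heyl (chr4:123224368-123250211), 26.1 kb over Nr4a1, a nuclear receptor (chr15:101243944-101270005), 33.1 kb in Ldlrad3 (chr2:102106430-102139515) and 37.9 kb near Cryaa (chr17:31721382-31759297). All 10 were overlapped by H3K18la peaks of gastrocnemius muscle and 8 by its H3K27ac peaks.

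The 10 shared regions that ranked highest in both lists were broad, 29.8 to 71.7 kb, and lay at or above percentile 99.8 in both. They covered Ccn4, a matricellular WNT target (chr15:66855393-66897894), Lmna, which encodes lamins A and C (chr3:88487776-88517570), Pmepa1, a target of TGF-beta signalling (chr2:173244741-173314722), part of Col4a2 (chr8:11343935-11394911), part of Ahnak (chr19:9051138-9084290), and sequence beside Cd44 (chr2:102913043-102952065) and 62.2 kb from Cebpb (chr2:167751082-167804871). Of the 10, 5 lay on chromosome 2. Over all shared regions the MT percentile lay above the MB percentile by a median of 11.3 points, which sets the base for the regions named next. The places within the lists differed most in favour of MT, 0.92 in MB and 99.3 in MT, at chr11:53305991-53316637, 5534 bp from Hspa4, and next at Actc1 (chr2:114048091-114065173, 0.57 and 98.2), where the MB peak lay over 2000 bp from the TSS. They differed most in favour of MB at chr7:143798021-143802143 in Nadsyn1 (90.7 and 0.53), and Cldn18, at an exon (chr9:99697291-99704199), lay at 93.2 and 4.78.

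MT-only regions were found again in adult muscle more often than MB-only regions. The H3K18la list of gastrocnemius muscle (GAS), which covers 4.67% of the genome, overlapped 45.8% of MT-only (45.1 to 46.4%), 52.4% of shared (51.4 to 53.3%) and 10.3% of MB-only regions (9.17 to 11.6%), a difference of 35.4 points between MT-only and MB-only (34.0 to 36.8). At 5000 peaks per list the shares were 73.0, 73.8 and 34.9%. Wider regions overlap more, so the 300 bp at the maximum were also used, an alternative chosen after seeing the data, and GAS peaks overlapped 41.0% of MT-only and 8.47% of MB-only windows. The difference was 41.9 points at promoters (37.9 to 45.4) and 30.4 points at distal regions (28.9 to 31.8). GAS H3K27ac and H3K4me3 lists, marks of active enhancers and promoters, overlapped 45.2 and 26.9% of MT-only and 12.3 and 6.00% of MB-only regions.

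The lists of other cell types overlapped fewer MT-only regions than the GAS list, with no scaling for list size. H3K18la lists of adipocytes (ADIPO), post-ischemia muscle macrophages (PIM), bone marrow-derived macrophages (BMDM) and embryonic stem cells in serum or 2i medium (ESC-ser, ESC-2i) overlapped 28.6, 28.5, 15.7, 17.5 and 21.3% of MT-only regions. These lists cover 2.91, 2.62, 0.86, 3.13 and 4.86% of the genome, and the GAS list 4.67%. They overlapped 7.07, 16.7, 8.51, 7.20 and 8.63% of MB-only regions, so that PIM was met more often by MB-only regions than GAS H3K18la, at 10.3%. Among H3K18la lists PIM was second to GAS in shared regions, with 43.3%. Taking 5000 peaks per list, PIM and GAS met MB-only regions about equally, in 33.6% (31.8 to 35.5%) and 34.9% (33.0 to 36.8%). No H3K18la of the 5 other cell types lay in 72.3% of MB-only, 49.7% of MT-only and 38.1% of shared regions. Of all MT-only regions 14.8% were also in GAS and in none of the 5, and of MB-only regions 3.95%. Regions in all 5 were 7.38% of shared, 3.15% of MT-only and 0.082% of MB-only regions. Regions in all 5 were 12.4, 8.86 and 2.95% with 5000 peaks per list, and those in none of the 5 were 24.5, 30.9 and 49.1%. Regions in GAS and in none of the 5 were then 16.7% of MT-only and 8.23% of MB-only regions.

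**Figure D4:**
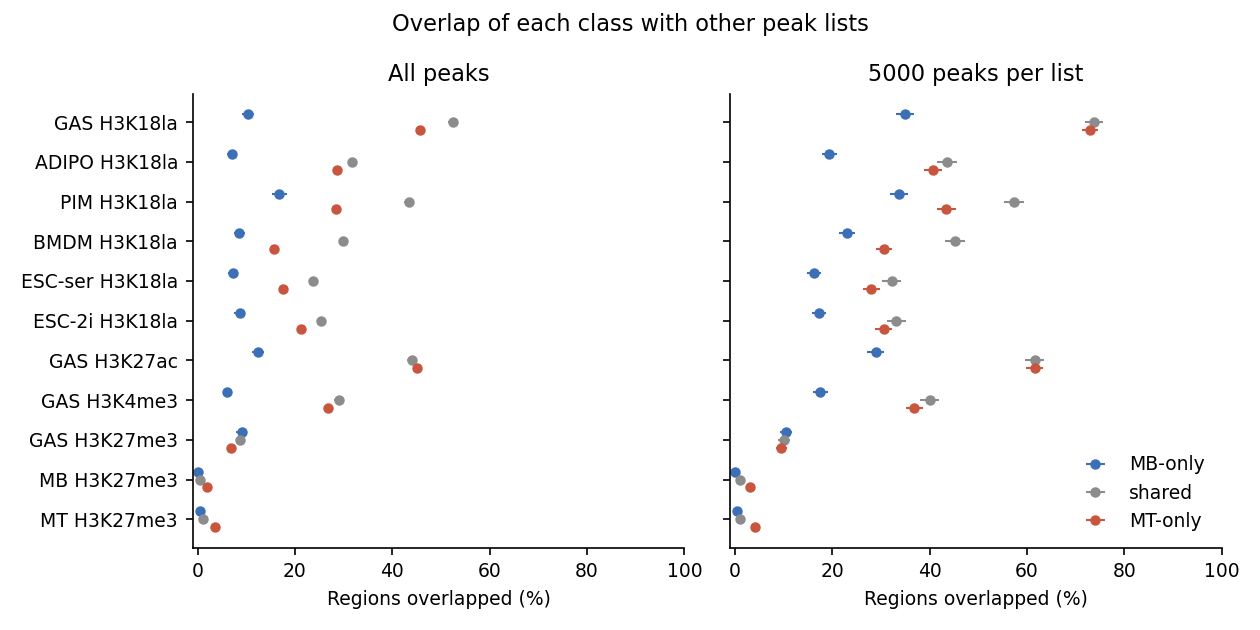
Share of MB-only, shared and MT-only H3K18la regions (%) overlapped by at least 1 bp of a peak of each other list, with all peaks (left) and 5000 peaks per list (right); points are shares and lines 95% Wilson intervals. GAS H3K18la overlaps 45.8% of MT-only and 10.3% of MB-only regions with all peaks, and 73.0 and 34.9% with 5000 peaks per list.

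H3K27me3, a mark of Polycomb-silenced chromatin, was mapped in MB (1 library) and MT (2 libraries pooled), and its lists cover 2.08 and 6.56% of the genome. MB H3K27me3 peaks met 1 of 2432 MB-only regions (0.041%, up to 0.23%) and 1.97% of MT-only regions (1.80 to 2.16%). MT H3K27me3 peaks met 0.41% of MB-only and 3.49% of MT-only regions. MT-only regions thus carried H3K27me3 in myoblasts more often than MB-only regions, by 1.93 points (1.68 to 2.12), but also in myotubes, by 3.07 points (2.66 to 3.38). In the 300 bp at the maximum, which have the same width in both classes, the differences were 1.10 points (0.90 to 1.24) and 2.03 points (1.65 to 2.299). With H3K27me3 of GAS the order was the opposite, 6.90% of MT-only and 9.05% of MB-only regions, a difference of -2.15 points (-3.39 to -1.02), and at promoters 6.84 and 14.7%. At distal regions this difference was -0.92 points (-2.23 to 0.25) and with 5000 peaks per list -0.95 points (-2.61 to 0.70), both with intervals that include 0. At promoters, 48 of the 5121 MT-only genes (0.94%) had H3K27me3 in MB and not in MT (0.71 to 1.24%), against 0.87% (0.73 to 1.03%) of the genes without an H3K18la promoter peak in either list. H3K27me3 in MT and not in MB was more frequent among MT-only genes, with 229 (4.47%), and 190 (3.71%) had it in both. Among the genes without an H3K18la promoter peak these shares were 10.2 and 15.0%. Of the 109 listed genes that were MT-only, 5 had H3K27me3 in MB and not in MT, Acta1, Ache, Cox6a2, Egr2 and Fabp3, while 4 had it in MT and not in MB and 3 in both. The 5 were named after their values were seen.

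The classes differed in the motif at their maximum. In 300 bp windows at the maxima of distal regions, TGANTCA was found in 63.3% of MB-only (61.2 to 65.4%), 54.2% of shared (53.0 to 55.4%) and 27.1% of MT-only regions (26.4 to 27.8%). Windows of 300 bp set every 50 kb along the genome held it in 8.80% of 51195. The difference between MT-only and MB-only was -36.2 points (-38.4 to -33.9). CAGCTG showed the opposite order, with 19.3% of MB-only (17.7 to 21.1%), 35.2% of shared and 39.3% of MT-only regions (38.6 to 40.1%), against 10.7% of genome windows, a difference of 20.02 points (18.1 to 21.9). The MEF2 motif was in 2.25% of MB-only and 6.94% of MT-only regions, a difference of 4.70 points (3.86 to 5.39), but in 6.80% of genome windows, which are richer in A and T (median GC content 41.7%, against 44.3% in MB-only and 48.0% in MT-only windows). Windows of shared regions lie at the MT maximum; at the MB maximum 58.0% held TGANTCA and 31.0% CAGCTG. A motif match is a run of letters on either strand and shows no binding.

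The order held in windows of like base composition for the AP-1 motif, for CAGCTG and for the MEF2 motif. In windows of 45 to 55% GC, TGANTCA was in 62.4% of MB-only and 26.6% of MT-only regions, CAGCTG in 21.5 and 42.1%, and the MEF2 motif in 1.03 and 5.51%. With 5000 peaks per list TGANTCA was in 63.7 and 31.9%, and CAGCTG in 25.0 and 48.9%. At promoter regions, an alternative chosen after seeing the data, TGANTCA was in 54.2% of MB-only and 16.7% of MT-only regions, whereas the MEF2 motif was in 4.19 and 4.41%, a difference of 0.23 points (-2.15 to 1.82). CAGCTG was there in 17.4 and 32.4%, a difference of 14.9 points (10.9 to 18.4), and the GC box GGGCGG in 9.07 and 31.7%, a difference of 22.6 points (19.4 to 25.2). Of the other letters searched, the E-box CAGGTG was in 10.6% of MB-only and 18.6% of MT-only distal regions and in 16.9% of genome windows. GGAATG, bound by TEAD factors, was in 27.7 and 24.7%, and TGTGGT, bound by RUNX factors, in 34.1 and 32.5%, differences of -3.01 points (-5.12 to -0.98) and -1.64 points (-3.87 to 0.53). At distal regions GGGCGG was in 2.90 and 6.08%, and the CArG box, bound by SRF, in 2.10 and 1.48%. In windows of 45 to 55% GC the CArG shares were 1.03 and 1.499%, a difference of 0.47 points (-0.48 to 1.02) in the opposite order, and those of GGGCGG 4.35 and 5.73%, a difference of 1.38 points (-0.25 to 2.64).

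**Figure D5:**
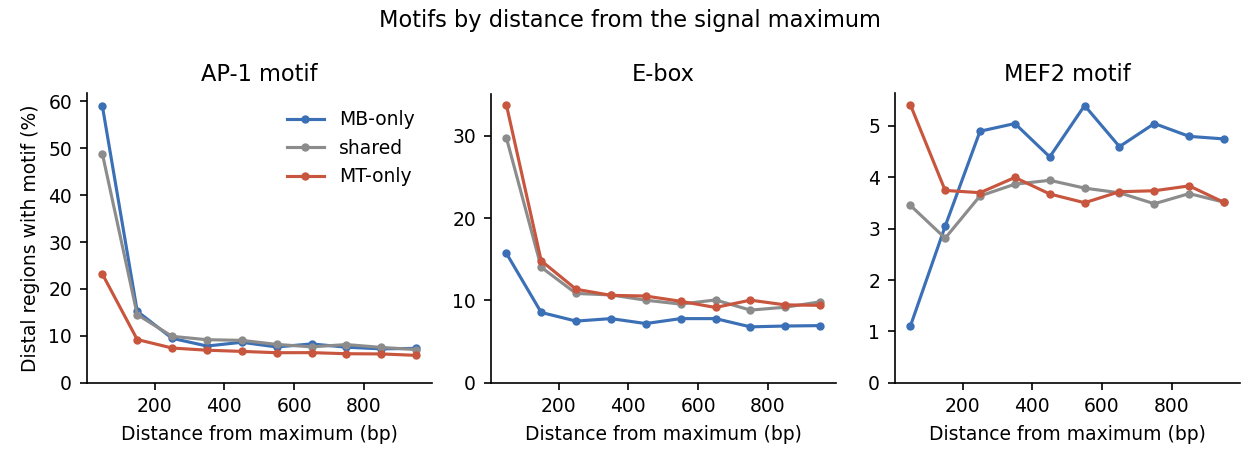
Share of distal regions (%) with a match to the AP-1 motif, the E-box or the MEF2 motif in 100 bp steps of distance on either side of the signal maximum, for MB-only (2002), shared (6573) and MT-only (15868) regions; axes differ between panels. Within 100 bp of the maximum the AP-1 motif is in 59.0% of MB-only and 23.2% of MT-only regions and the E-box in 15.7 and 33.8%, and beyond 300 bp the classes lie closer together.

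Matches were concentrated at the maximum. TGANTCA was in 59.0% of MB-only, 48.8% of shared and 23.2% of MT-only distal regions within 100 bp of it, and in 7.3, 7.1 and 5.9% between 900 and 1000 bp. CAGCTG fell from 15.7, 29.8 and 33.8% to 6.9, 9.8 and 9.4%. The MEF2 motif rose toward the maximum only in MT-only regions, to 5.4%, and was rarest at the maximum in MB-only regions, 1.1% against 4.7% at 900 to 1000 bp. Of MB-only distal regions 28.2% had neither TGANTCA nor CAGCTG in the 300 bp, of shared regions 27.2% and of MT-only regions 42.4%. Both together were in 10.8, 16.6 and 8.90%.

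The 6573 shared distal regions were divided into quartiles by the MT minus the MB percentile, which had a median of 10.03 points, so the quartiles order the regions against each other and do not measure a change. TGANTCA was in 61.3% (58.9 to 63.6%) of the quartile with the lowest differences and in 56.7, 53.3 and 45.4% (43.0 to 47.8%) of the others in order. CAGCTG was in 26.6% (24.5 to 28.8%) of the first quartile and in 36.6, 35.9 and 41.6% (39.2 to 44.0%) of the others. The MEF2 motif was in 4.32, 3.90, 4.08 and 6.27%. CAGCTG and the MEF2 motif thus had no steady order over the quartiles. TGANTCA was in 52.9% of the weakest and 63.5% of the strongest decile of distal regions with an MB peak, and in 29.8 and 42.4% of those with an MT peak. MT-only distal regions that were also in GAS held TGANTCA in 23.3% (22.3 to 24.4%) and those not in GAS in 29.5% (28.6 to 30.5%), and the MEF2 motif in 8.06% (7.41 to 8.76%) and 6.22% (5.76 to 6.72%).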

How the data were processed

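CUT&Tag libraries of mouse cells were processed by the authors. Per the labels and the methods, reads were trimmed (Trim Galore 0.6.6), aligned to mm10 (Bowtie2 2.4.4), handled with SAMtools 1.13 and bedtools 2.30, and peaks were called with SEACR 1.3 as the top 1% of stretches, in stringent mode, after replicates were merged. The deposited lists give the total signal and the maximum signal of each peak, which were not scaled for depth; library depth is not given in them. The methods name a filter on blacklisted regions, and whether it had been applied to these lists was not tested.

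Regions were merged, classed, annotated (GENCODE vM21, 139486 transcripts) and searched for motifs on both strands of GRCm38.p6 in Python 3.11.15 with numpy 2.4.6, pandas 2.3.3 and scipy 1.17.1; overlaps were checked against bedtools on simulated peaks. A promoter lay within 2000 bp of a TSS, and distal regions were assigned to the nearest protein-coding TSS within 100 kb. With 1 list per cell type no test was run; intervals cover counting only and treat regions as independent. Narrower promoters, wider windows, other overlaps and other peak sets were tried. The 20 gene lists (343 genes), the regions and the motifs were chosen with earlier results of these data known. By rule the text names listed genes, the 10 strongest regions per class, the 5 shared regions whose MT percentile lay furthest above and below that in MB, and the 10 genes with most distal regions.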

Additional observations from a re-analysis of the deposited data

Results flagged for a closer look

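Mitochondrial DNA, which lies outside the chromosomes compared here, held 8.26% of the total signal of the MT list and 0.285% of that of the MB list, as 1 peak in each. It stands here because no comparison used it, and whether it moves with any result was not tested. The share in the 6 other H3K18la lists ranged from 0.098% to 9.50%.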

How the results depend on the processing

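Of 78 values recomputed for 22 results, 34 stayed within their counting interval (for counts of genes, within 1.5 times the count given) and 44 did not. Leaving out each library in turn was not run and no paired analysis was possible because libraries had been pooled before peaks were called. With 5000 peaks per list the shares of MB-only, MT-only and shared regions were 32.6, 36.7 and 30.8%, by maximum signal 34.2, 37.4 and 28.5%, and with the MT list reduced to the bases of the MB list 72.7, 6.50 and 20.8%, so that the order of MB-only and MT-only regions turned. In the upper 50% of each list MB-only and shared regions made up 7.98 and 26.5%. With 5000 peaks per list 51.9% of MB and 45.8% of MT peaks were overlapped, and 93.5 and 70.5% against the whole other list. Promoter shares of MB-only, MT-only and shared regions were 13.0, 28.9 and 31.4% within 1000 bp, 8.63, 21.6 and 20.7% with protein-coding TSSs, and 26.6, 41.5 and 43.0% with 5000 peaks per list, which gave 357 MB-only, 701 MT-only and 469 genes in both, 19 MT-only sarcomere genes and 0 MT-only cell cycle genes. The MT-only minus MB-only difference in overlap with GAS H3K18la was 30.4 points at distal regions, 41.9 at promoters, 38.1 with 5000 peaks per list and 32.5 in 300 bp windows. For MB H3K27me3 it was 2.98 with 5000 peaks per list, 1.47 with an overlap of 50% and 1.10 in 300 bp windows, and for MT H3K27me3 3.71, 2.17 and 2.03, and 2.18 at promoters. For CAGCTG it was 18.1 over all regions and 23.9 with 5000 peaks per list, for TGANTCA -31.8 with 5000 peaks per list, and for MEF2 3.52 over all regions. Leaving out maxima above 2000 or chromosome 2, the 300 bp windows and the promoter-only values were chosen after seeing the data. Fewer peaks entered at 5000 per list; the cause of the other shifts was not tested. Depth cannot be separated from cell type here.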

Other observations

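MB H3K27me3 peaks lay on chromosome 2 in 13.3% and on chromosome X in 2.44%, and MT H3K27me3 peaks lay on X in 7.71%. H3K18la peaks lay on X in 1.42% in MB and 1.46% in MT.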
